A study of Mus musculus with 9 samples.

Results

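The 10 genes described here are 7 matrix metalloproteinases (*Mmp2*, *Mmp3*, *Mmp8*, *Mmp9*, *Mmp13*, *Mmp14* and *Mmp19*) and 3 tissue inhibitors of metalloproteinases (*Timp1*, *Timp2* and *Timp3*). They were chosen by name from the 23747 genes of each expression table. The choice used no threshold on their values, but it was made with earlier results of these data known. They were followed across the cell types of the mouse heart and across the 3 groups of the study.

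Hearts of 9 C57BL/6 mice, 8 weeks old when supplied, were taken for single-nucleus RNA sequencing (sNuc-seq), with 3 mice in each group, and p-values below measure the spread between mice. The study asked what ischemia-reperfusion (I/R) does to cardiac cells and whether pre-treatment with Shexiang Baoxin Pill (SBP, named MUSKARDIA in the labels), a traditional Chinese medicine, alters it. All mice were gavaged for 7 days before surgery, the sham and I/R groups with vehicle and the SBP group with the drug. In the I/R and SBP groups the left anterior descending coronary artery was ligated for 30 minutes and reperfused for 24 hours. In the sham group the operation left the artery open. Per the study, tissue was taken from below the ligation, so the libraries hold that region and not the whole heart. No group received SBP without ischemia.

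Matrix metalloproteinases are zinc enzymes that cut collagens, proteoglycans and other parts of the extracellular matrix. Most are secreted as inactive precursors and become active when a propeptide is removed. TIMPs bind the active site and block it, and in the infarcted heart the balance of enzymes and inhibitors is known to shape scar formation and rupture. Transcript levels, as measured here, say nothing of the activation of the enzymes.

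As deposited, the 9 libraries held 49171 nuclei, with 4576 to 6418 nuclei and 10329520 to 18205984 unique molecular identifiers (UMIs) per library. That is fewer nuclei than the study reports after quality control, and which ones are absent was not examined. Nuclei were grouped into 34 clusters and named from marker genes, so that a cell type below means nuclei that resemble it. Fibroblasts (14106 nuclei), endothelial cells (13454), cardiomyocytes (10549) and myeloid cells (9569) were tested. UMIs were summed per mouse and cell type, and levels are given as CPM, a gene's share of the UMIs of that sum scaled to a common total with TMM factors. The 10 genes gave between 201 UMIs (*Mmp13*) and 23017 UMIs (*Timp3*) over all nuclei.

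The I/R libraries differed among themselves in which clusters they held. I/R replicate 1 held 838 nuclei of myeloid cluster 20, where the other I/R libraries held 7 and 12. I/R replicate 2 held 706 nuclei of myeloid cluster 25, where the others held 3 and 31. I/R replicate 1 also held 851 nuclei of cardiomyocyte cluster 1, the main sham cluster, against 3 and 52. Fibroblast cluster 11, with *Tnc* and *Postn* among its leading genes, held 5, 5 and 3 nuclei in the sham libraries and 478, 422 and 163 in the I/R libraries, and sham fibroblasts lay mainly in clusters 14, 16 and 13. Sham myeloid cells lay mainly in clusters 19 and 22. Values within a cell type therefore compare different mixtures of clusters, and results that changed without a library are given as such.

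In I/R against sham, most changes of the family were increases. In myeloid cells all 10 genes passed the filter on low values. 6 of them were higher in I/R (*Timp1*, *Mmp19*, *Mmp14*, *Mmp8*, *Mmp3* and *Mmp9*) and *Mmp13* was lower, while 17.2% of all genes tested in myeloid cells were called. In fibroblasts 9 of the 10 were tested. *Timp1*, *Mmp8*, *Mmp9* and *Mmp14* were higher and *Timp3* was lower, against 11.7% of all genes. In endothelial cells 8 were tested and 5 were higher (*Timp1*, *Mmp3*, *Mmp19*, *Mmp9* and *Mmp14*), against 3.36% of all genes. In cardiomyocytes 7 were tested and 3 were higher (*Timp1*, *Mmp14* and *Mmp3*), against 0.851%. Genes were called where limma gave a p, adjusted by Benjamini-Hochberg over all genes of the type, of 0.05 or less and a log2 fold change beyond 0.25 in size. The median log2 fold change of the tested members was 2.52 in myeloid cells, 1.70 in fibroblasts, 1.65 in endothelial cells and 1.27 in cardiomyocytes. Over all genes tested it was 0.08, 0.0037, -0.02 and -0.03. When the mean deposited natural log value per nucleus was tested in place of summed UMIs, 4 of these 20 calls held (*Timp1*, *Mmp14* and *Timp3* in fibroblasts and *Mmp14* in myeloid cells). Of the 16 lost, 7 kept an adjusted p of 0.05 or less and missed only the limit on the fold change, which is smaller on that scale. Many called members lay below the filter in every sham mouse and were tested only through the injured groups, which favours increases. These were all 6 higher members in myeloid cells, *Mmp8* and *Mmp9* in fibroblasts, and *Timp1* and *Mmp3* in cardiomyocytes. In endothelial cells they were *Timp1*, *Mmp3*, *Mmp19* and *Mmp9*. The counts and medians of members therefore describe the family and do not test it.

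**Figure D1:**
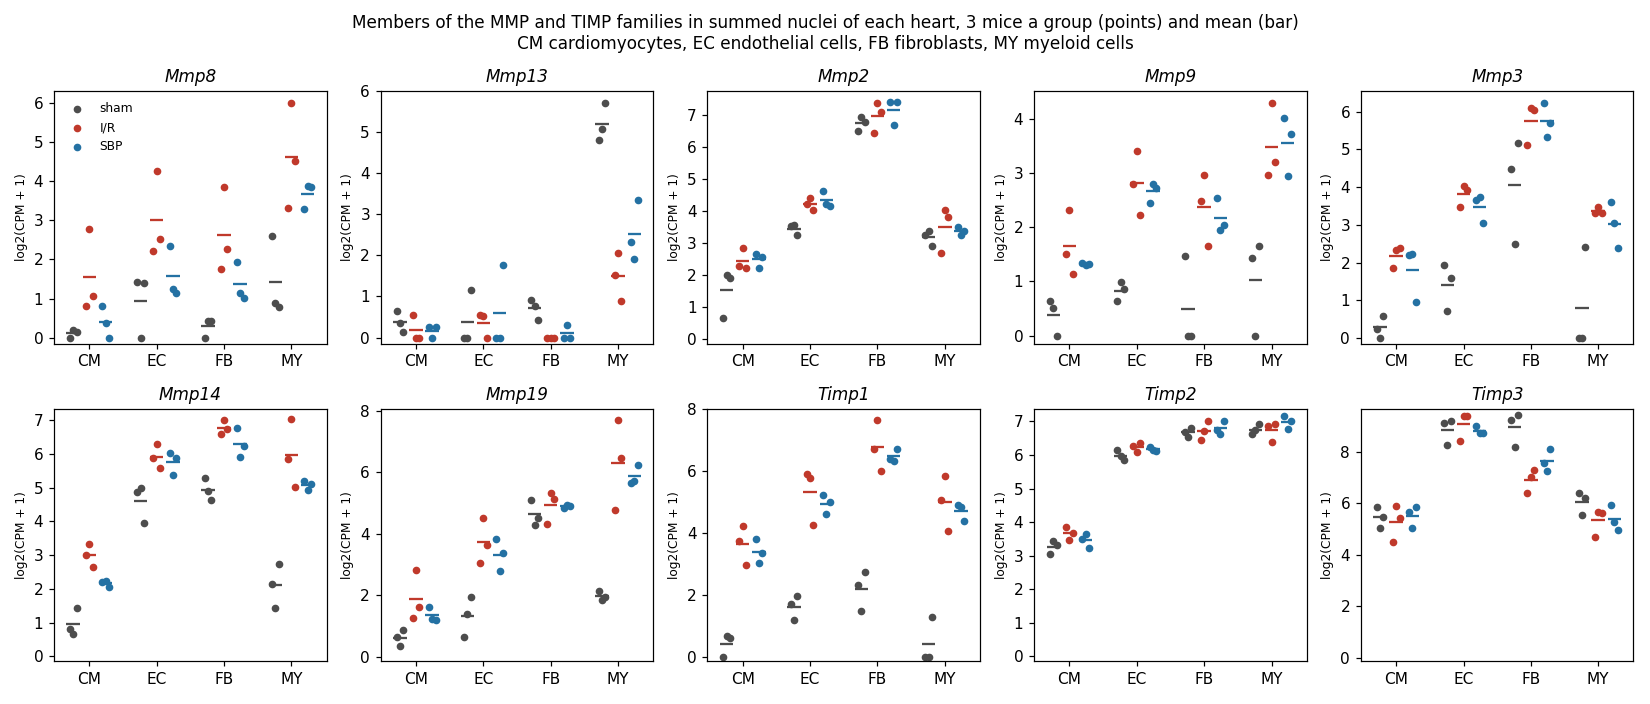
Level of each of the 10 genes, as log2(CPM + 1) on the vertical axis, in summed nuclei of cardiomyocytes, endothelial cells, fibroblasts and myeloid cells. Points are the 3 mice of a group and bars are group means. *Timp1* lies higher in I/R and SBP than in sham in all 4 types, *Mmp13* lies lower in myeloid cells, and *Timp3* lies lower in I/R fibroblasts.

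The collagenases *Mmp8* and *Mmp13*, both of which cleave fibrillar collagen, moved in opposite directions in myeloid cells. *Mmp8*, known as neutrophil collagenase, measured 5.09, 0.855 and 0.716 CPM in the sham mice, 8.88, 63.0 and 21.95 in the I/R mice, and 8.76, 13.7 and 13.5 in the SBP mice. Every I/R value lay above every sham value, and I/R replicate 2 stood highest. The log2 fold change was 3.18 ± 0.66 (SE) with an adjusted p of 0.00835. It was lost with limma voom, at an adjusted p of 0.17.

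The neutrophil cluster held most *Mmp8* per nucleus. It numbered 162 nuclei in I/R, 62 in SBP and 1 in sham. There *Mmp8* reached 59.1, 690 and 260 CPM in the 3 I/R mice, the first from 1 UMI in 20 nuclei. These nuclei gave 84 of the 273 *Mmp8* UMIs of I/R myeloid cells. Without the neutrophil and dendritic clusters, an alternative chosen after seeing the data, the log2 fold change in the other myeloid nuclei was 2.80 with an adjusted p of 0.00641 in limma. Within those, I/R nuclei of cluster 25 had 60.9 CPM.

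*Mmp8* was also called in fibroblasts (log2 fold change 2.34 ± 0.51, adjusted p = 0.0119). Without any 1 I/R or SBP library, in a fit of only the 6 samples compared, or with marker score typing, *Mmp8* did not pass the filter there. Its UMIs numbered 2 in the sham mice and 73 in the I/R mice, which gives a ratio of 25.5 (95% counting interval 6.8 to 214). The summed level of the 9 neutrophil markers moved with it, from 11.9 to 44.4 CPM in sham fibroblasts to 79.5 to 312 in I/R and 56.7 to 148 in SBP. At most 2 of the 9 markers were at 0 in any of these fibroblast sums. Per 1000 I/R nuclei, *Mmp8* gave 13.5 UMIs in T cells, 13.7 in cardiomyocytes, 14.9 in endothelial cells and 15.9 in fibroblasts, against 519 in the neutrophil cluster. The T cell number came from 4 UMIs. Median depth was 1015 UMIs per nucleus in I/R T cells and 4700 in cardiomyocytes. The part of free RNA in the *Mmp8* UMIs of these types was not tested.

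*Mmp13*, or collagenase 3, was largely a myeloid transcript, with 86.07% of its 201 UMIs in these cells. It measured 27.2, 32.5 and 51.5 CPM in the sham mice, 1.86, 3.17 and 0.861 in I/R and 3.98, 2.74 and 9.25 in SBP. All 6 injured hearts lay below all sham hearts. The log2 fold change was -3.71 ± 0.45 for I/R and -2.67 ± 0.45 for SBP against sham, with adjusted p of 0.000303 and 0.00297. Cluster 22 held most of it, 91 UMIs in 697 sham nuclei (86.3 CPM), 7 in 156 I/R nuclei (26.5 CPM) and 13 in 294 SBP nuclei (25.5 CPM). Cluster 19, whose leading genes include *Timd4* and *Cd163*, had 18.7, 1.90 and 4.73 CPM in the same order. Sums of the markers listed for B cells, dendritic cells and cardiomyocytes fell in the same myeloid sums. The dendritic and neutrophil clusters are part of the myeloid cells here, so the dendritic markers are not those of another type. From sham to I/R the 7 B cell markers went from 760 to 897 CPM to 50.7 to 183, the 6 dendritic markers from 312 to 391.5 to 53.7 to 179, and the 8 cardiomyocyte markers from 6558 to 7871 to 1940 to 3126. At most 3 B cell, 2 dendritic and no cardiomyocyte markers were at 0 in any of them. Of these lists, *Bank1* and *Ighm* (B cell) were raised in the myeloid clusters 19 and 22 themselves and *Ciita* (dendritic) in cluster 22. *Mmp13* gave 0 UMIs in 201 sham B cell nuclei, which allows up to 14.9 per 1000, against 67.2 per 1000 in sham myeloid cells, and averaged 0.317 CPM in sham cardiomyocytes. The part of RNA from other cell types in the *Mmp13* decrease was not tested. Without the neutrophil and dendritic clusters the decrease was -3.72 ± 0.46 (adjusted p = 0.000299). The gene did not pass the filter in the other 3 types.

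*Mmp3*, *Mmp8* and *Mmp13* lie close together on chromosome 9, at 7445822-7455975, 7558456-7568485 and 7272514-7283331 (GRCm38, plus strand). The window from 250 bases before to 50 after the start is shown for *Mmp3* and *Mmp13*. In the myeloid sums *Mmp3* was called higher and *Mmp13* lower in I/R, while their windows carry the same short element. The myeloid *Mmp3* call started from 0, 0 and 4.30 CPM in sham and was lost when nuclei were typed by marker score. The source of the *Mmp3* UMIs in myeloid cells was not tested. Capitals mark TGAGTCA, the AP-1 consensus, searched on both strands, so that its reverse complement is also in capitals. It is present in 5.2% of 32851 RefSeq promoters of the same length, and among the 7 members with a RefSeq promoter in the table it was found in these 2. A match is a description of letters, not of a bound site.
Mmp3, chr9:7445572-7445871, plus strand: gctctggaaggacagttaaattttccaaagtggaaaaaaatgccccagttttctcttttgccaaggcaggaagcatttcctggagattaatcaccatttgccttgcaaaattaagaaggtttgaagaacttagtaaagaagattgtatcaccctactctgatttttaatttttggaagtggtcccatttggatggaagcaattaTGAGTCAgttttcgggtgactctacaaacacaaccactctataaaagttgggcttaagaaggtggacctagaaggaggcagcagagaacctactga
Mmp13, chr9:7272264-7272563, plus strand: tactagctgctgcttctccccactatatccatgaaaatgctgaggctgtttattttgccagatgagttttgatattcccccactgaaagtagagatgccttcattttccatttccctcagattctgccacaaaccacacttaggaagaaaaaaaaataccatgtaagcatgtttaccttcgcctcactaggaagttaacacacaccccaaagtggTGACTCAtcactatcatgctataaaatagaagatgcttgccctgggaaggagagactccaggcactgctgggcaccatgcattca
The element begins 46 bases before the start of *Mmp3* and 35 bases before that of *Mmp13*, and TATAAA on the sense strand, present in 8.32% of promoters, occurs once in each.

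The gelatinases *Mmp2* and *Mmp9* cut denatured collagen and basement membrane collagen. *Mmp2* belonged to fibroblasts, which gave 82.75% of its 4863 UMIs. Fibroblast levels were 89.0, 121 and 109 CPM in sham, 85.4, 166 and 136 in I/R and 169, 101 and 167 in SBP. The groups overlapped, and the log2 fold change in I/R was 0.24 ± 0.26 with an adjusted p of 0.626. In cluster 11 it stood at 70.6 CPM in I/R, below the other fibroblast clusters, which ranged from 118 to 181. In endothelial cells *Mmp2* had a mean of 17.6 CPM in the I/R mice and 9.97 in the sham mice, and the increase missed the threshold although the groups did not overlap (log2 fold change 0.76 ± 0.21, adjusted p = 0.0768).

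*Mmp9*, stored in neutrophil granules, gave the fewest UMIs after *Mmp13* (437). In myeloid cells it measured 1.70, 0 and 2.15 CPM in sham, 6.82, 18.7 and 8.18 in I/R and 15.1, 6.69 and 12.1 in SBP. I/R and SBP did not overlap with sham. The log2 fold change in I/R was 2.46 ± 0.54 with an adjusted p of 0.00874. The neutrophil cluster had 236, 299 and 147 CPM in the 3 I/R mice and held 42 of the 105 UMIs of I/R myeloid cells. Without the neutrophil and dendritic clusters *Mmp9* no longer passed the filter on low values and was not tested.

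*Mmp9* was also called in endothelial cells (log2 fold change 1.98 ± 0.37, adjusted p = 0.0158) and fibroblasts (1.87 ± 0.47, adjusted p = 0.0246). Neither call held without I/R replicate 2 (adjusted p = 0.0748 and 0.107) or without sham replicate 2 or 3 (0.0502 to 0.104), and the fibroblast call was also lost without I/R replicate 1 (0.055) and without fibroblast cluster 11 (0.0717). Per 1000 I/R nuclei it gave 13.1 UMIs in cardiomyocytes, 10.6 in endothelial cells and 11.4 in fibroblasts. I/R T cells gave 0 UMIs in 297 nuclei, which allows up to 10.1 per 1000. The neutrophil marker sum in endothelial cells was 23.7 to 57.8 CPM in sham, 140 to 504 in I/R and 109 to 242 in SBP. The part of neutrophil RNA in these calls was not tested.

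*Mmp3*, or stromelysin-1, degrades many matrix proteins and can activate other metalloproteinases. Fibroblasts held 74.1% of its 1938 UMIs, with 21.4, 4.65 and 35.3 CPM in sham, 33.9, 68.1 and 64.7 in I/R and 74.4, 38.9 and 50.6 in SBP. Sham replicate 3 lay above I/R replicate 1, and the increase of 1.70 ± 0.60 on the log2 scale was not called (adjusted p = 0.104). It was called without sham replicate 3, at 2.26 with an adjusted p of 0.0455.

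In the types with little *Mmp3* the increase was called. Endothelial cells rose from 2.80, 0.649 and 2.04 CPM to 10.1, 15.2 and 14.3 (log2 fold change 2.39 ± 0.35, adjusted p = 0.00655). Myeloid cells rose from 0, 0 and 4.30 CPM to 8.88, 10.2 and 9.04 (2.57 ± 0.63, adjusted p = 0.015), a call lost when nuclei were typed by marker score (0.80, adjusted p = 0.372). The cardiomyocyte call (1.90 ± 0.36, adjusted p = 0.0362) was lost without I/R replicate 2 or 3 or any 1 sham library, and with a replicate block (adjusted p = 0.0801). Per 1000 nuclei, I/R cardiomyocytes, endothelial cells and myeloid cells had 22.3, 22.7 and 19.6 UMIs of *Mmp3*, against 142 in I/R fibroblasts. In sham these types had 1.42 to 3.202 UMIs and fibroblasts 36.3. I/R T cells had 6.73, from 2 UMIs. The source of the UMIs in the types with little *Mmp3* was not tested.

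*Mmp14* encodes MT1-MMP, which is anchored in the cell membrane and activates pro-MMP2 together with TIMP2. It was the only member besides *Timp1* that was called higher in I/R in all 4 types. In fibroblasts it measured 37.8, 29.0 and 23.7 CPM in sham, 96.0, 127 and 106 in I/R and 107, 59.0 and 74.6 in SBP. The log2 fold change in I/R was 1.84 ± 0.23 with an adjusted p of 0.000459, and all 3 I/R hearts lay above all sham hearts.

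In myeloid cells *Mmp14* went from 3.40, 1.71 and 5.73 CPM in sham to 56.4, 129 and 31.4 in I/R and 35.9, 29.5 and 33.5 in SBP. The change in I/R was 3.85 ± 0.46 on the log2 scale with an adjusted p of 0.000462, and 0.0515 with limma voom. I/R replicates 2 and 3 had 156 and 115 CPM in cluster 25, the latter in 31 nuclei. Cluster 28, with *Gpnmb* among its leading genes, had 71.9, 90.4 and 43.9 CPM in the 3 I/R mice. In endothelial cells *Mmp14* rose from 28.0, 30.8 and 14.65 to 57.5, 78.3 and 46.6 CPM (1.31 ± 0.29, adjusted p = 0.033), a call that was lost without I/R replicate 1 or 2, any 1 sham library or SBP replicate 3. Cardiomyocytes stood at 0.75, 0.576 and 1.73 CPM in sham and 7.02, 8.97 and 5.29 in I/R (2.02 ± 0.28, adjusted p = 0.00769). That call was lost without I/R replicate 2, at an adjusted p of 0.0517. The myeloid marker sum in cardiomyocytes was 55.7 to 63.8 CPM in sham and 103 to 195 in I/R, with at most 1 of 11 markers at 0. In endothelial cells it was also higher in I/R (417 to 770 CPM, against 207 to 269). The part of myeloid RNA in these increases was not tested.

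*Mmp19* cuts basement membrane and other matrix proteins. In sham it was a fibroblast transcript, at 33.4, 18.6 and 21.7 CPM, apart from all other types. In I/R the neutrophil cluster and myeloid cells led instead, with means of 107 CPM in both, and the next types in the order overlapped with them. In myeloid cells it measured 3.40, 2.56 and 2.86 CPM in sham, 26.2, 207 and 87.8 in I/R and 49.4, 52.0 and 74.7 in SBP. All injured hearts lay above all sham hearts, and I/R replicate 2 stood highest. The log2 fold change was 4.34 ± 0.59 with an adjusted p of 0.0017, and 0.158 with limma voom.

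Cluster 25 had 296 CPM of *Mmp19* in the 706 nuclei of I/R replicate 2 and 544 in the 31 nuclei of I/R replicate 3. The 3 I/R mice had 50.5, 192 and 134 CPM in cluster 23 and 33.6, 215 and 118 in cluster 28, so that I/R replicate 1 was the lowest in both. Fibroblasts stood at 18.8, 39.4 and 33.6 CPM in I/R, with a log2 fold change of 0.29 ± 0.27 (adjusted p = 0.567). Endothelial cells rose from 0.561, 1.62 and 2.85 to 7.36, 21.7 and 11.4 CPM (2.41 ± 0.44, adjusted p = 0.015), a call lost without I/R replicate 2 or sham replicate 2. The summed level of the 11 myeloid markers in endothelial cells moved with it, from 207 to 269 CPM in sham to 417 to 770 in I/R, with none at 0, and I/R replicate 1 had the highest sum. The part of myeloid RNA in the endothelial *Mmp19* was not tested. On the other strand, *Mmp19* lies inside the antisense gene *Gm47093*, which has an exon within its span, and overlaps *Tmem198b*. *Gm47093* gave 169 UMIs in all and did not pass the filter in myeloid cells, and in endothelial cells its change was -0.50 ± 0.53 (adjusted p = 0.675). The change of *Tmem198b* in myeloid cells was 0.04 with an adjusted p of 0.94.

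*Timp1* encodes a secreted inhibitor that is induced by injury. It had the largest increase of the 10 genes in each of the 4 types. Fibroblasts went from 4.00, 1.79 and 5.59 CPM in sham to 104, 196 and 63.2 in I/R and 81.7, 79.0 and 104 in SBP, a log2 fold change of 4.604 ± 0.40 in I/R with an adjusted p of 0.000139. Fibroblasts gave 61.78% of its 3946 UMIs. Cluster 11 carried most of it, with 184, 414 and 212 CPM in the I/R mice, and the remaining clusters had 20.2 to 97.3. The 13 sham nuclei of cluster 11, too few for a level, gave 14 of the 30 *Timp1* UMIs of sham fibroblasts. In I/R, 1063 nuclei of that cluster gave 1088. Without cluster 11 the log2 fold change was 3.77 with an adjusted p of 0.000196.

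In endothelial cells *Timp1* rose from 2.24, 1.30 and 2.85 to 58.8, 53.9 and 18.0 CPM (3.70 ± 0.40, adjusted p = 0.00181). In cardiomyocytes it rose from 0, 0.576 and 0.508 to 12.4, 17.6 and 6.74 CPM (3.22 ± 0.35, adjusted p = 0.00297). In myeloid cells (4.55 ± 0.47, adjusted p = 0.000108) the sham mice gave 2 UMIs and the I/R mice 352, which is a ratio of 52.9 (95% counting interval 14.5 to 439). Every I/R value lay above every sham value in these types, and I/R replicate 3 was the lowest I/R library in all of them. Per 1000 I/R nuclei *Timp1* gave 69.9 UMIs in cardiomyocytes, 71.1 in endothelial cells, 74.2 in myeloid cells and 57.2 in T cells, against 303 in fibroblasts. In sham the first 3 numbers were 2.12, 3.13 and 1.07. Whether it came from those nuclei or from free RNA was not tested. *Timp1* lies on chromosome X at 20870166-20874735 (GRCm38), in an intron of *Syn1* on the other strand. *Syn1* gave 283 UMIs in all, and in myeloid cells it also rose (2.56 ± 0.48, adjusted p = 0.00352).

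*Timp2* was called in no type. It is the inhibitor that also takes part in pro-MMP2 activation. Myeloid cells had 96.8, 106 and 120 CPM in sham and 115, 83.5 and 121 in I/R, and fibroblasts 102, 92.6 and 111 in sham and 85.4, 104 and 128 in I/R. Myeloid cells and fibroblasts overlapped with each other in both groups. The log2 fold changes in I/R ran from -0.03 ± 0.18 in myeloid cells to 0.40 ± 0.20 in cardiomyocytes, with adjusted p from 0.386 to 0.943.

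*Timp3* is the inhibitor bound to the matrix. It gave the most UMIs of the family, 47.26% of them in endothelial cells and 34.9% in fibroblasts. Fibroblasts fell from 614, 293 and 695 CPM in sham to 83.0, 129 and 158 in I/R and stood at 189, 151 and 279 in SBP. The log2 fold change was -2.06 ± 0.36 in I/R (adjusted p = 0.00533). Neither injured group overlapped with sham, but the SBP difference of -1.32 ± 0.36 missed the threshold (adjusted p = 0.0613). With a replicate block that SBP difference was called. Marker sums of other cell types in fibroblasts also fell from sham to I/R. The 8 cardiomyocyte markers went from 5105 to 6379 CPM to 1778 to 2635, and the 8 smooth muscle and pericyte markers from 354 to 434 to 223 to 317, with none at 0. Of the latter list, *Pdgfrb* was raised in the fibroblast clusters 11, 12, 14, 15 and 16 themselves and *Notch3* in 11 and 14. The part of RNA from other cell types in the *Timp3* decrease was not tested. Endothelial cells had 558, 306 and 589 CPM in sham and 346, 674 and 672 in I/R, a change of 0.21 ± 0.30 (adjusted p = 0.759).

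Cluster 11 had the least *Timp3* of the fibroblast clusters, with 75.2, 43.1 and 40.7 CPM in I/R. The decrease remained called without it (-1.68 ± 0.35, adjusted p = 0.0312). In cluster 13, held by all 9 libraries, *Timp3* was 355, 204 and 342 CPM in sham, 78.8, 129 and 152 in I/R and 209, 162 and 246 in SBP. In cluster 16 the groups overlapped, since I/R replicate 2 had 405 CPM where the other I/R mice had 78.1 and 84.8. In cluster 15 the I/R mice had 122, 272 and 210 CPM, around the 226 of sham replicate 2 (6 UMIs). SBP overlapped with sham in cluster 12, at 403, 357 and 746 against 883, 390 and 614 CPM. In cluster 14 SBP lay below sham, at 233, 226 and 234 against 712, 298 and 703. *Timp3* spans chromosome 10, 86300372-86349506 (GRCm38), inside *Syn3*, which is read from the other strand. *Syn3* had 18.7 CPM in sham fibroblasts and 4.69 in I/R, and fell too (-1.84 ± 0.36, adjusted p = 0.00666). The sources used here do not say whether counting used strand.

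**Figure D2:**
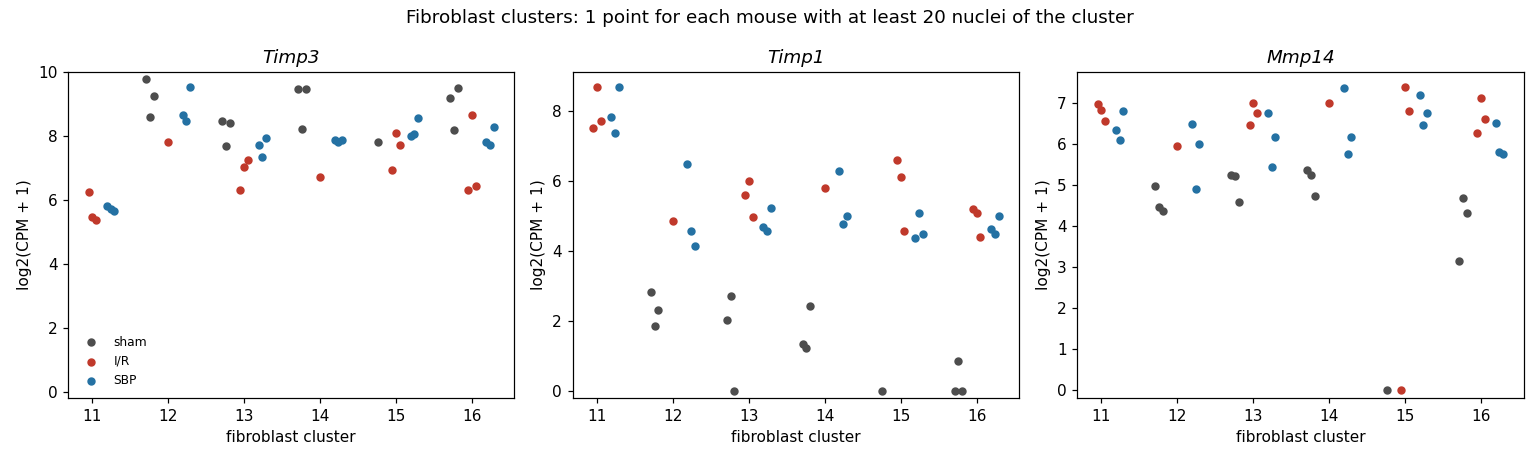
Levels of *Timp3*, *Timp1* and *Mmp14*, as log2(CPM + 1) on the vertical axis, in the 6 fibroblast clusters on the horizontal axis. Each point is a mouse with at least 20 nuclei of the cluster. Cluster 11 has no sham point, the lowest *Timp3* and the highest *Timp1*, and sham points of *Timp1* lie below all I/R and SBP points.

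**Figure D3:**
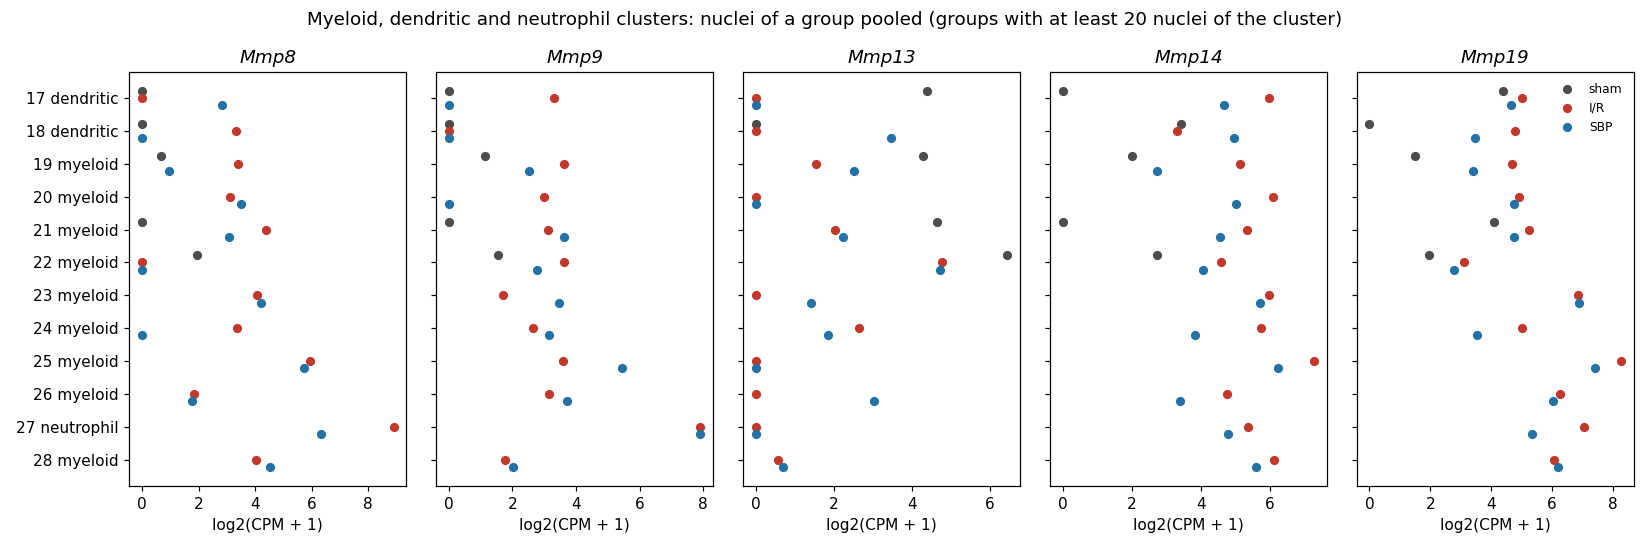
Levels of *Mmp8*, *Mmp9*, *Mmp13*, *Mmp14* and *Mmp19*, as log2(CPM + 1) on the horizontal axis, in the myeloid, dendritic and neutrophil clusters, with the nuclei of a group pooled. *Mmp8* and *Mmp9* are highest in neutrophil cluster 27, *Mmp13* in cluster 22 and *Mmp14* and *Mmp19* in cluster 25, and groups with fewer than 20 nuclei of a cluster are left out.

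Whether the I/R change of a member differed between fibroblasts and another cell type was tested on the difference of log2(CPM + 1) between the 2 types in each mouse, a test added after seeing the data. *Timp3* fell in fibroblasts relative to each of the other 3 types. The difference of the changes was -2.27 ± 0.20 against endothelial cells (adjusted p = 7.88e-05), -1.89 ± 0.25 against cardiomyocytes (adjusted p = 0.00162) and -1.34 ± 0.33 against myeloid cells (adjusted p = 0.0286). For *Mmp19* the change in fibroblasts lay below that in myeloid cells, by -4.05 ± 0.39 (adjusted p = 1.48e-04), and below that in endothelial cells, by -2.12 ± 0.46 (adjusted p = 0.044). *Mmp14* rose in both fibroblasts and myeloid cells, and the fibroblast change was the smaller (-2.01 ± 0.46, adjusted p = 0.0222). In every sham mouse *Mmp19* in myeloid and endothelial cells and *Mmp14* in myeloid cells lay below the filter. These differences of *Mmp19* and *Mmp14* were thus tested only through the injured groups, which favours them, and they are descriptions. Of all genes, 3.86% were called against cardiomyocytes, 2.6% against endothelial cells and 8.91% against myeloid cells. For *Timp1* no difference between fibroblasts and another type was called, with adjusted p from 0.053 to 0.937.

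**Figure D4:**
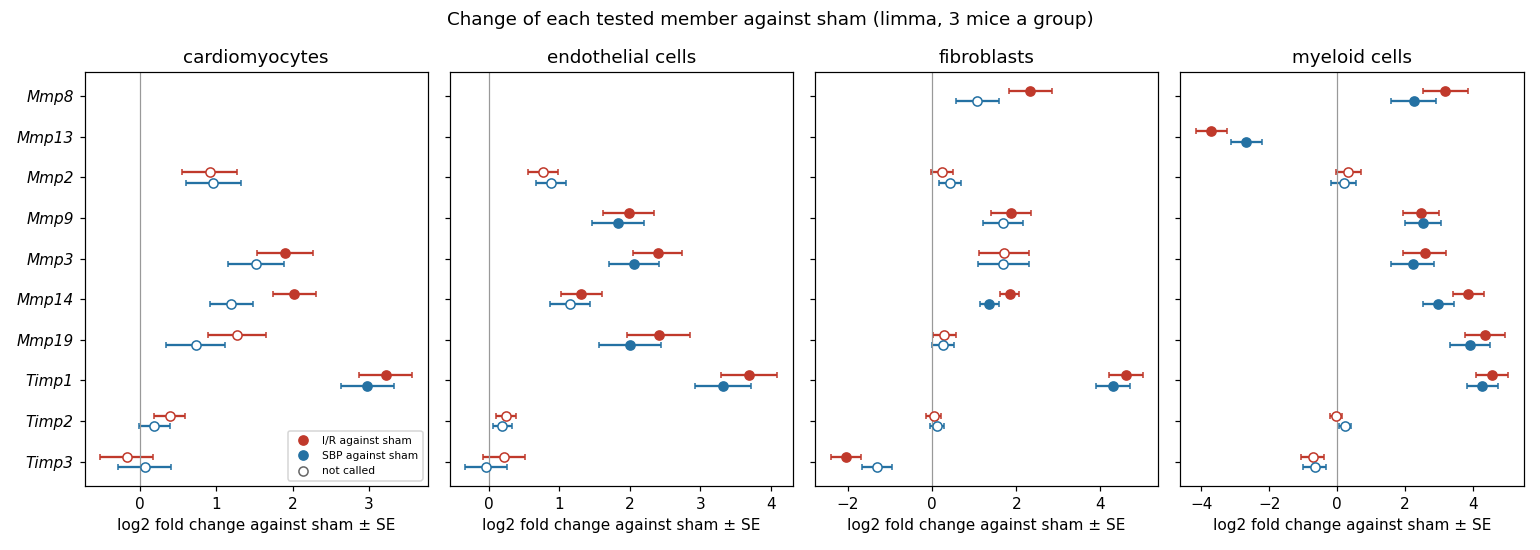
Log2 fold change against sham with its standard error on the horizontal axis, for I/R (red) and SBP (blue), in 4 cell types with 3 mice a group. Filled points were called and open points were not. *Timp1* is the largest increase in each type, and *Mmp13* in myeloid cells and *Timp3* in fibroblasts are the decreases called in I/R.

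SBP against sham shares its sham hearts with the comparison above, and members below the filter in sham again entered only through the injured groups. In myeloid cells 7 of 10 members were called (12.1% of all genes), with *Mmp13* lower and *Timp1*, *Mmp19*, *Mmp14*, *Mmp9*, *Mmp8* and *Mmp3* higher. *Timp1* and *Mmp14* were called in fibroblasts (6.09% of all genes), *Timp1*, *Mmp3*, *Mmp19* and *Mmp9* in endothelial cells (2.33%), and *Timp1* in cardiomyocytes (0.139%). *Timp1* stood at 4.29 ± 0.40 in fibroblasts (adjusted p = 0.000378) and *Mmp19* at 3.90 ± 0.59 in myeloid cells (adjusted p = 0.0036). *Mmp3* in myeloid cells was called without complete separation, since sham replicate 3 (4.30 CPM) lay above SBP replicate 3 (4.27 CPM). With limma voom the counts fell to 3 in myeloid cells, 1 in endothelial cells and 0 in cardiomyocytes, with *Mmp19* in myeloid cells at an adjusted p of 0.234. With the mean natural log value they fell to 0 in all 4 types. Without cluster 11 *Mmp14* in fibroblasts was no longer called (1.34, adjusted p = 0.0692). Several of these calls also rested on single libraries. *Mmp8* in myeloid cells (2.25 ± 0.66, adjusted p = 0.0481) was lost without I/R replicate 3, sham replicate 2 or 3, or any 1 SBP library, and *Mmp3* there without sham replicate 1 or 2 or any 1 SBP library. In endothelial cells *Mmp9* was lost without any 1 sham or SBP library, *Mmp19* without any 1 sham library or SBP replicate 1 or 3, and *Mmp3* without SBP replicate 1. *Timp1* in cardiomyocytes (2.97 ± 0.35, adjusted p = 0.0173) was lost without sham replicate 1 or 3 or SBP replicate 1. With a replicate block the fibroblast count of 2 became 4, when *Mmp9* and *Timp3* were also called, and the endothelial count of 4 became 2, when *Mmp9* and *Mmp19* were lost. *Mmp3* and *Mmp8* in myeloid cells were lost under the block too.

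In SBP against I/R no member was called in any type, and the share of all genes that limma called was 0% in cardiomyocytes, 0% in endothelial cells, 0% in fibroblasts and also 0% in myeloid cells. An unadjusted p under 0.05 was reached by 286 of 12921, 642 of 12209, 462 of 13067 and 424 of 10896 genes in these types. Limma voom also called none. Of 34 tests of members, 24 estimates lay below 0. Over all genes the median log2 fold change ran from -0.015 to 0.0094 in these types. The 34 tests share the same mice across types and are not independent. An unadjusted p under 0.05 was found for 3 of them. *Mmp14* in cardiomyocytes had the smallest of these, with 3.63, 3.69 and 3.19 CPM in SBP against 7.02, 8.97 and 5.29 in I/R. The groups did not overlap, the log2 fold change was -0.82 and its 95% interval ran from -1.43 to -0.21, but the adjusted p was 1. The myeloid marker sum in cardiomyocytes did not overlap either, at 64.9 to 97.2 CPM in SBP against 103 to 195 in I/R, and its part in the difference was not tested. The others were *Mmp8* in fibroblasts (-1.26, interval -2.37 to -0.16) and *Mmp13* in myeloid cells (1.03, interval 0.054 to 2.02). The B cell marker sum in myeloid cells was also higher in SBP, at 195 to 451 CPM against 50.7 to 183, and its part was not tested.

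Wide intervals remained for several members that changed with injury. The interval was -1.77 to 0.89 for *Mmp19* in myeloid cells, -1.20 to 0.58 for *Timp1* in fibroblasts, and -0.06 to 1.53 for *Timp3* in fibroblasts. The study, with more nuclei and DESeq2, lists *Timp3* among the genes lowered by SBP in endothelial cells. Here its log2 fold change there was -0.25, with an interval of -0.91 to 0.41 and an adjusted p of 0.995 in limma. A missing call does not show that the groups were alike.

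**Figure D5:**
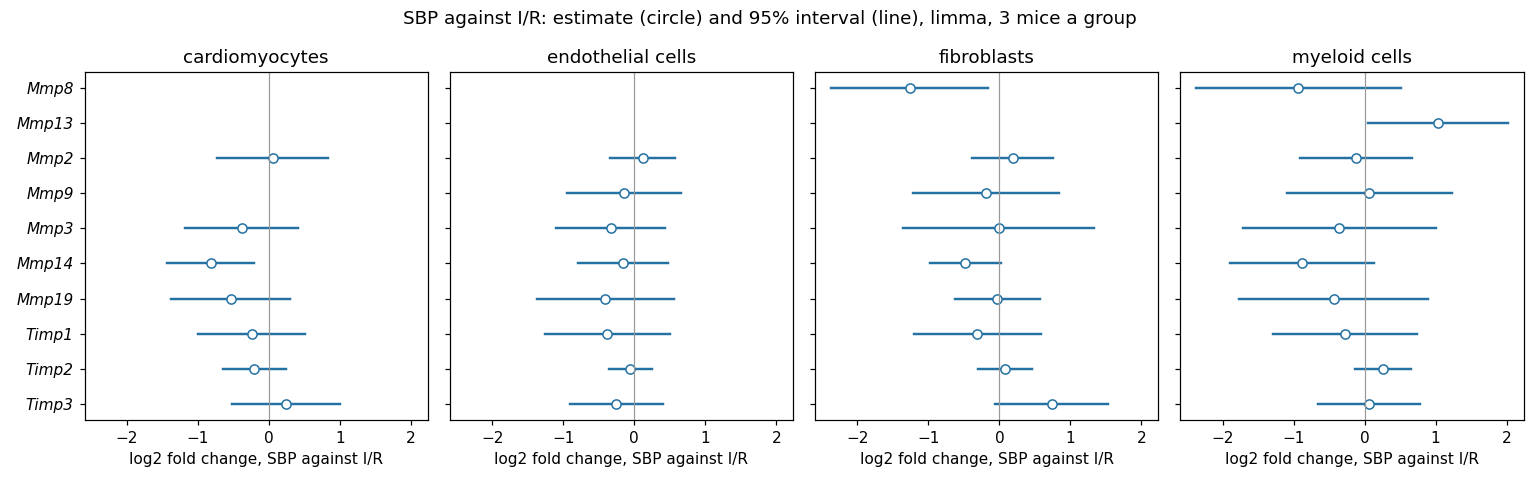
Log2 fold change of SBP against I/R on the horizontal axis, with the 95% interval as a line, for each tested member in 4 cell types and 3 mice a group. No member was called, and the intervals of most members span 0.

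Other genes that act on the same proteins or on matrix were taken from lists that leave out the 10 members, chosen like the members with earlier results of these data known. They passed the same filter. *Adamts4* in fibroblasts and endothelial cells, *Il6* in fibroblasts and *Mmp27* in myeloid cells entered only through the injured groups, which favours increases. Counts and medians of the lists therefore describe them and do not test them. The part of RNA from other cell types in these changes was not tested. Among the other MMPs and *Timp4*, *Mmp27* was higher in I/R in myeloid cells (4.50, adjusted p = 0.000535), with 414 UMIs against 1 in the sham mice (124 times, 95% counting interval 22.2 to 4930), and in fibroblasts (log2 fold change 1.26, adjusted p = 0.0487). *Mmp15*, a membrane-type enzyme, was lower in myeloid cells (-1.77, adjusted p = 0.0136). In these 2 types 5 and 8 of the 13 listed genes in the tables were tested. Over all genes 17.2% and 11.7% were called in these types. None was called in cardiomyocytes or endothelial cells, where 6 were tested in each and 0.851% and 3.36% of all genes were called.

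Of the ADAMTS proteases, which cut proteoglycans and procollagens, 5 of 15 tested in fibroblasts were higher and 1 was lower in I/R, where 11.7% of all genes were called. The median log2 fold change was 0.58 in fibroblasts and 0.73 in endothelial cells, against 0.0037 and -0.02 for all genes. *Adamts4*, an aggrecanase, gave 358 UMIs in I/R fibroblasts and 3 in sham fibroblasts, and its level was 83.2 times the sham level (95% counting interval 28.3 to 406). *Adamts15* and *Adamts6* rose by 2.15 and 2.11, and *Adamts10* fell by 0.93. *Adamts4* was also higher in endothelial cells, from 1 UMI to 160. In that type 2 of 14 tested were higher (3.36% of all genes called), and none of 12 in cardiomyocytes (0.851%) or 8 in myeloid cells (17.2%) was called.

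Many ADAM proteins are sheddases, which release membrane-bound proteins. *Adam8* was the one called in all 4 types, from 30.9 to 463 mean CPM in myeloid cells (log2 fold change 3.94, adjusted p = 1.7e-05). It is among the leading genes of myeloid cluster 28, and the part of myeloid RNA in its calls in the other types was not tested. *Adam12* rose most in fibroblasts, by 4.799 on the log2 scale, from 24.0 to 679 mean CPM (adjusted p = 2e-06), and it is among the leading genes of cluster 11. In myeloid cells 5 of 10 were higher and 3 lower (*Adam19*, *Adam22* and *Adam33*), where 17.2% of all genes were called. In the other types, with 0.851%, 3.36% and 11.7% of all genes called in cardiomyocytes, endothelial cells and fibroblasts, 2 were higher in each and none was lower, of 8 tested in cardiomyocytes and 10 in endothelial cells and in fibroblasts.

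Of the regulators and partners of MMPs, 5 of 12 tested were higher and 2 lower in myeloid cells in I/R (17.2% of all genes called). *Thbs1* (5.87), *Thbs2* (2.00), *Lrp1* (1.75), a receptor that clears MMPs, *Cd44* (1.51), a docking partner of MMP9, and *Furin* (1.31), which activates pro-MMP14, were higher. In fibroblasts *Reck*, a membrane inhibitor of MMPs, fell by 0.66 on the log2 scale, from 123 to 77.2 mean CPM (adjusted p = 0.0161), and *Lcn2*, whose protein binds MMP9, rose by 3.55. Of 14 tested there, 3 were higher and 2 lower (11.7% of all genes called). Of 15 in endothelial cells 3 were higher (3.36%), and of 13 in cardiomyocytes 2 (0.851%), with none lower.

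Of the inducers and transcription factors, 5 of 18 tested were higher in fibroblasts and 1 was lower, against 11.7% of all genes called. *Il6* gave no UMI in sham fibroblasts and 544 in I/R fibroblasts. Taking 3 UMIs in all sham fibroblasts together as the floor, it was at least 127-fold higher in I/R. *Il1b*, *Runx1*, *Fosl1* and *Il1r1* rose by 2.43, 2.26, 1.63 and 1.53, and *Ets1* fell by 1.22. The part of myeloid and neutrophil RNA in the *Il1b* increase was not tested. In myeloid cells *Osm* (2.61), *Fosl2* (2.37), *Junb* (1.84), *Runx2* (1.47) and *Stat3* (1.01) were higher and *Ets1* and *Runx1* lower, of 17 tested and against 17.2% of all genes. *Osmr* in cardiomyocytes (2.03) and *Fosl2* in endothelial cells (1.63) were the called genes of 16 tested in each, against 0.851% and 3.36% of all genes.

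The genes most alike to each member were those with the highest Pearson correlation of log2(CPM + 1) over 57 sums of a mouse and cell type, among 12349 genes with at least 500 UMIs. The correlations are descriptions, since the sums share libraries. *Mmp2* went with *Itgb8* (0.879), *C1qtnf7* and *Sec16b*. *Mmp3* went with *Snai1* (0.777), *Cyp7b1* and *Tnfrsf23*. *Mmp8* went with *Cxcl3* (0.853), *Hp* and *Fcgr4*, and *Mmp9* with *Il1b* (0.769), *Gm5150* and *F7*. *Mmp13* went with *Clec5a* (0.851), *Adgre4* and *Slc39a12*, *Mmp14* with *Nupr1* (0.823), *Mlkl* and *Nlgn2*, and *Mmp19* with *Sgms2* (0.818), *Anpep* and *Gm17268*. *Timp1* went with *Cxcl5* (0.76), *Tnc* and *Lox*, *Timp2* with *Cmtm3* (0.858), *Rbbp8* and *Mapk7*, and *Timp3* with *Prex2* (0.876), *Lims2* and *Tshz2*.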

How the data were processed

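The values deposited by the authors are natural log values per nucleus, ln(1 + 10000 × UMIs / total UMIs), in 9 tables of 23747 genes. Per the labels they used Cell Ranger 4.0, STAR and Seurat 3.2.0 with GRCm38, while the methods of the study name other versions of Cell Ranger and Seurat. UMIs were recovered by taking the smallest value of a nucleus as 1 UMI. At least 99.99936% of values came out within 0.1 of a whole number. A pair of libraries shared 4 to 14 barcodes.

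Nuclei were clustered with scanpy 1.11.5 and its igraph version of the Leiden method (resolution 1.5, then 0.6 within some types) on 2000 variable genes without the listed genes, and clusters were named from marker genes. The resolution was set after looking at cluster names. The doublet caller marked 84 nuclei (0.171%), too few to count as having worked, and those were removed. No doublet step is described in the methods of the study.

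UMIs were summed per mouse and type (at least 20 nuclei) and log2(CPM + 1) was tested with limma 3.58.1 (trend and robust variances) over all 9 samples, and this scale understates changes of low genes. A gene was kept when 3 samples reached the CPM that 10 UMIs give at the median library size and when it had 15 UMIs in all. P-values were adjusted by Benjamini-Hochberg over all genes of a type. Levels of the neutrophil cluster and other clusters are unscaled CPM. The tests were also run on simulated counts with planted changes, which bears on the code and not on these results. Counting intervals cover counting error only.

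All 10 members were named in every type. From other lists, some of the called genes were named. The plan of at most 5 per list and type by size of change was not kept throughout. By likeness, 3 genes per member were named. The members and lists were chosen with earlier results of these data known. Replicate numbers come from the titles and were not used as a block. The test between types and the alternatives without cluster 11 or without neutrophil and dendritic clusters were added after seeing the data. Other scalings, pseudocounts, filters, typings, weights and left-out libraries were tried.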

Additional observations from a re-analysis of the deposited data

Results flagged for a closer look

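The change in I/R against sham differed between cell types for 3 members, by a test of the difference of log2(CPM + 1) between fibroblasts and the other type in each mouse. *Timp3* differed by -1.89 between fibroblasts and cardiomyocytes, by -2.27 between fibroblasts and endothelial cells and by -1.34 between fibroblasts and myeloid cells. *Mmp19* differed by -2.12 between fibroblasts and endothelial cells and by -4.05 between fibroblasts and myeloid cells. *Mmp14* differed by -2.01 between fibroblasts and myeloid cells. The differences of *Mmp19* and *Mmp14* were tested only through the injured groups, since the other type lay below the filter in every sham mouse. Groups of 3 mice are too small for a check of single outlying values.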

How the results depend on the processing

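Of 34 called changes of members against sham, none changed direction under any alternative, but 30 lost their call when the mean deposited natural log value was tested, 13 with limma voom, 7 with marker score typing, 5 with a pseudocount of 5 and up to 9 without any 1 library. With the mean natural log value, on which fold changes are smaller, 9 of the 30 kept an adjusted p of 0.05 or less and missed only the fold limit of 0.25. The other causes were not tested. A further 4 with marker score typing (*Mmp9* in endothelial cells in both injured groups, *Mmp8* and *Mmp9* in I/R fibroblasts), 5 in the fits of only the 6 samples compared and 1 (*Mmp8* in I/R fibroblasts) without any 1 I/R or SBP library no longer passed the filter and were not tested. With the mean natural log value the numbers of called members in I/R against sham fell to 3 in fibroblasts, 1 in myeloid cells and 0 in both other types, and in SBP against sham to 0 in each of the 4 types. With limma voom I/R against sham had 4 in myeloid cells, and SBP against sham 0 in cardiomyocytes, 1 in endothelial cells and 3 in myeloid cells. Marker score typing gave 3 in endothelial cells and 3 in fibroblasts in I/R, and 1 in endothelial cells in SBP against sham. A fit of only the 6 samples compared gave 3 in endothelial cells and 3 in fibroblasts in I/R, and 2 in cardiomyocytes in SBP against sham, where the lower counts hold 1 lost call (*Mmp14* in I/R endothelial cells) and 3 members that were not tested (*Mmp9* in both types and *Mmp8* in fibroblasts). A pseudocount of 5 gave 0 in cardiomyocytes and 2 in endothelial cells in SBP against sham, and fibroblasts without cluster 11 gave 1. Leaving out 1 library gave, in I/R against sham, 1 to 4 in cardiomyocytes (1 without I/R replicate 2), 2 to 5 in endothelial cells and 3 to 5 in fibroblasts, and in SBP against sham 0 to 1 in cardiomyocytes and 1 to 5 in endothelial cells.

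The replicate numbers were not taken to pair the samples, since not every same-numbered pair correlated above 0.1. Over 4 cell types the correlations of deviations ran from -0.32 to 0.29, with 11 of 36 over 0.1. All pairs of number 3 were positive, from 0.03 to 0.29, and in fibroblasts and myeloid cells each was over 0.1. In 9 of the 36 combinations of a sample and a cell type, the sample correlated best with its own number in both other groups. Some pairs of unlike number also correlated in all 4 types. I/R replicate 1 with SBP replicate 2 ran from 0.20 to 0.38, and I/R replicate 2 with SBP replicate 1 from 0.23 to 0.34. The source of this was not tested, and no block on these pairs was fitted. With a replicate block, 5 of the 34 called changes lost their call, among them *Mmp3* in I/R cardiomyocytes (adjusted p = 0.0801), members called in SBP against sham went to 2 in endothelial cells and 4 in fibroblasts, and the other counts stayed within 1.5 times.

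All values that changed sign belonged to uncalled changes. In log2 fold change they were, with marker score typing, -0.047 for *Timp2* and -0.23 for *Timp3* in cardiomyocytes in SBP against sham, -0.082 and 0.12 for *Timp2* in fibroblasts and myeloid cells in I/R, and in SBP against I/R 0.047 for *Mmp3* in fibroblasts and 0.20 and 0.11 for *Mmp2* and *Mmp3* in myeloid cells. With the mean natural log value they were -0.0076 for *Timp3* in cardiomyocytes in SBP against sham, and in SBP against I/R -0.0011 for *Mmp2* in cardiomyocytes, -0.037 for *Timp2* in fibroblasts and -0.0088 for *Mmp9* in myeloid cells. Total UMI scaling gave -0.0050 for *Mmp2* in cardiomyocytes and limma voom -0.057 for *Mmp9* in myeloid cells. Without cluster 11, SBP against I/R gave 0.20 for *Mmp3*, 0.048 for *Mmp19* and -0.0095 for *Timp2*, and without the neutrophil and dendritic clusters *Timp2* was 0.0058 in myeloid cells in I/R.

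Leaving out 1 library gave these ranges. In I/R against sham they were -0.48 to 0.22 (*Timp3*, cardiomyocytes), -0.10 to 0.53 (*Timp3*, endothelial cells), -0.092 to 0.17 (*Timp2*, fibroblasts) and -0.14 to 0.14 (*Timp2*, myeloid cells). In SBP against sham they were -0.14 to 0.30 and -0.34 to 0.13 for *Timp3* in cardiomyocytes and endothelial cells. In SBP against I/R in cardiomyocytes they were -0.065 to 0.25 (*Mmp2*), -0.59 to 0.046 (*Mmp3*), -0.59 to 0.044 (*Timp1*) and -0.15 to 0.55 (*Timp3*). In endothelial cells they were -0.018 to 0.21 (*Mmp2*), -0.44 to 0.15 (*Mmp9*), -0.33 to 0.036 (*Mmp14*) and -0.13 to 0.0072 (*Timp2*). In fibroblasts they were -0.084 to 0.43 (*Mmp2*), -0.33 to 0.21 (*Mmp3*), -0.55 to 0.11 (*Mmp9*), -0.33 to 0.18 (*Mmp19*), -0.70 to 0.11 (*Timp1*) and -0.068 to 0.22 (*Timp2*). In myeloid cells they were -0.54 to 0.14 (*Mmp2*), -0.20 to 0.47 (*Mmp9*), -1.22 to 0.26 (*Mmp19*), -0.75 to 0.15 (*Timp1*) and -0.27 to 0.27 (*Timp3*).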

Other observations

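Smooth muscle cells and pericytes, with 183 nuclei in all, reached 20 nuclei in 4 libraries and were not tested. There *Timp3* stood at 624 and 575 CPM in sham replicates 1 and 3, 293 in I/R replicate 3 and 476 in SBP replicate 1, from 36 to 137 UMIs each. *Mmp2* stood at 84.0 and 29.4 CPM in the same sham libraries, 48.8 in I/R and 107 in SBP.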
